A study of Drosophila melanogaster with 6 samples.

Results

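Aminoacyl-tRNA synthetases attach each amino acid to its tRNA, and so supply the ribosome with charged tRNA. Animal cells translate in the cytosol and in mitochondria, and for many amino acids separate nuclear genes encode the cytosolic and the mitochondrial enzyme. The members described here were all probe sets that the platform annotation assigned to exactly 1 gene symbol of the synthetase pattern (3 letters for the amino acid followed by RS) or to GluProRS. There were 32 such probe sets for 30 genes, out of 11982 genes with a probe set of 1 symbol. Symbols ending in -m were taken as mitochondrial (14 genes) and the others as cytosolic (16 genes), although in humans the genes for the glycine and lysine enzymes serve both compartments. The gene table used for names held no matching symbol ending in -m for GlyRS, HisRS, LysRS, ThrRS or GlnRS. These genes passed as lower in the results below, and whether they also serve mitochondria was not tested. AspRS, MetRS and AlaRS-m were not analysed here.

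The cells were Drosophila SL2 cells, an established line of embryonic origin with features of haemocytes (insect blood cells). Of 2 groups, 1 received double-stranded RNA (dsRNA) against ISWI, and the other dsRNA against GST as the control target. Each had 3 biological replicates, with 1 array of total RNA per replicate, and no untreated cells were measured. Both groups got 10 micrograms of dsRNA, with the first 1 hour free of serum, and RNA was taken on day 7 without passaging. Iswi encodes the ATPase of several nucleosome remodelling complexes, and the comparison asks which transcripts differed once it was depleted.

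The Iswi probe set read 7.66, 7.74 and 7.16 on the ISWI arrays, against 10.53, 10.54 and 10.47 on the GST arrays (deposited log2 values). This left 12.6% of the GST level (log2 fold change -2.99, standard error 0.14, limma adjusted p = 7.61e-06), and by an exact permutation test p was 0.1, which is the minimum for 3 against 3 arrays. All 10 haemocyte markers lay above a log2 value of 4 on each of the 6 arrays, with a mean of 12.84 to 12.95 on ISWI arrays and 12.90 to 12.92 on GST arrays. Of these, 6 passed the test described below (60%, against 41.1% of all tested genes). NimC1, srp and Pxn passed as lower (log2 fold changes of -0.86, -0.28 and -0.29) and eater, drpr and crq as higher (0.75, 0.51 and 0.22). The crystal cell markers PPO1 and PPO2, which encode prophenoloxidases, were higher by 1.54 and 0.76 (limma adjusted p = 8.48e-05 and 0.00015), lz did not pass at 0.23, and the lamellocyte marker atilla was at or below 4 on all arrays. The mean of these 4 markers was 7.56 to 7.91 on ISWI arrays and 6.79 to 6.99 on GST arrays. Of the neuron markers, brp was lower by 0.29 (limma adjusted p = 0.0454), elav did not pass at -0.39, and nSyb was at or below 4 on all arrays, with a mean over the 3 of 5.01 to 5.19 on ISWI arrays and 5.22 to 5.44 on GST arrays. The part of these marker changes in the results below was not tested. The markers with a probe set for muscle (Mlp60A), fat body (Fbp1 and Lsp2) and germline (vas and bam) were at or below 4 on all arrays. As a sign of RNA quality, the eIF-4a controls had the largest excess of the 3' over the 5' probe set on ISWI replicate 2, at 2.26 (log2), against 1.86 to 1.91 on the other ISWI arrays and 1.69 to 1.85 on the GST arrays. All 3 ISWI arrays lay above all GST arrays in this difference, while those of the other control transcripts overlapped. ISWI replicate 2 was the highest array for these too, at 1.06 for actin, 2.55 for Act5C and 0.91 for GAPDH. The other arrays reached at most 0.55, 1.99 and 0.75. The part of RNA quality in the results below was not tested. GST replicate 1 had an 18S rRNA signal of 12.99, against 8.31 to 9.30 on the other GST arrays and 8.78 to 8.93 on the ISWI arrays. In bulk RNA, fewer cells of a type and less RNA per cell cannot be told apart.

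Cytosolic synthetase genes were lower after ISWI dsRNA in 12 of 16 cases and higher in 0. Testing required 3 or more arrays with a value over 4, which all 32 probe sets had, and a gene passed at a limma adjusted p under 0.05 over all 7390 tested probe sets. Among all 6011 tested genes, 17.6% passed as lower and 23.4% as higher, against 75% and 0% of the cytosolic synthetases. Their median log2 fold change was -0.34, against 0.03 over all tested genes. The log2 fold changes ran from -1.13 to 0.05. Mitochondrial synthetase genes gave 1 lower and 2 higher of 14, with a median of 0.06 and a range from -0.48 to 0.62. The mitochondrial share that passed in either direction, 21.4%, was below the 41.1% of all tested genes. Signal levels differed too. Means over the GST arrays ran from 9.88 (ArgRS) to 12.51 (AsnRS) for cytosolic genes and from 4.43 (ValRS-m) to 10.62 (AspRS-m) for mitochondrial genes. The largest standard error was 0.097 among cytosolic and 0.155 among mitochondrial genes, and the part of signal level in the shares was not tested. These shares and medians are descriptions, and the difference between the compartments over all their genes was not tested.

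**Figure D1:**
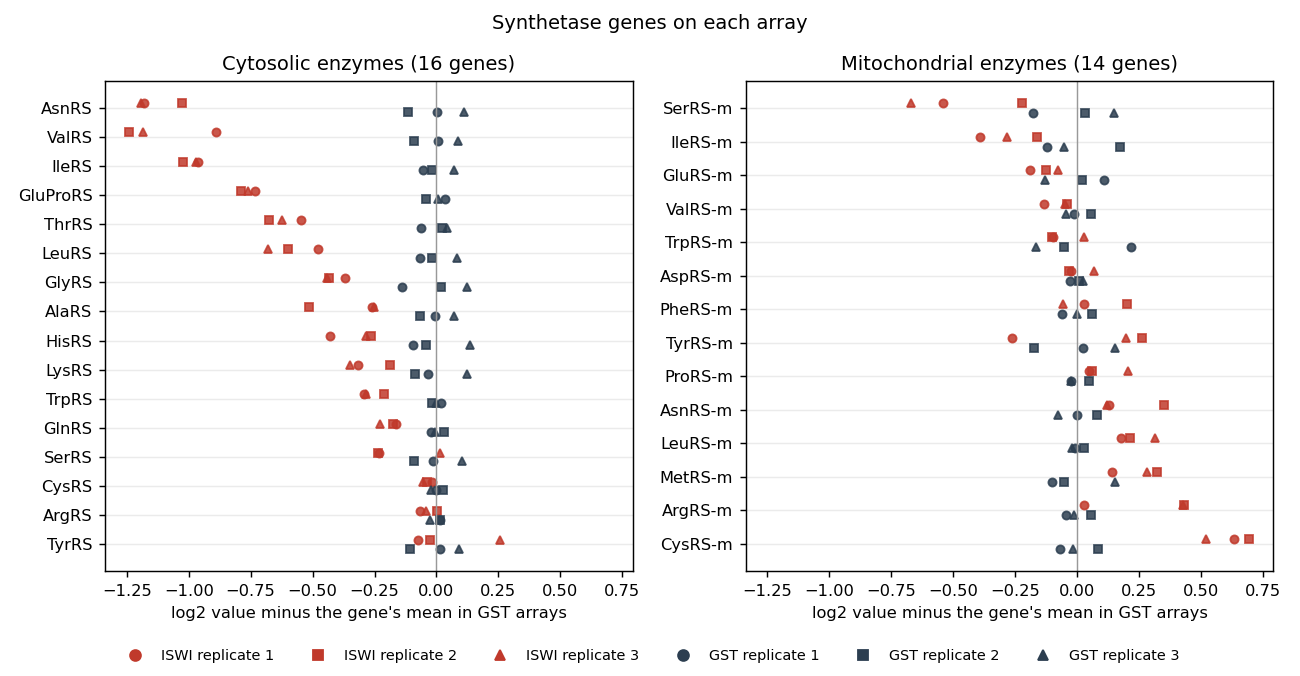
Log2 value of each synthetase gene on each array, minus the mean of that gene on the 3 GST arrays; left panel, 16 cytosolic genes, right panel, 14 mitochondrial genes, with the ISWI replicates in red and the GST replicates in dark blue. The 3 ISWI arrays lie left of all GST arrays for 12 cytosolic and 2 mitochondrial genes, and right of them for 0 cytosolic and 3 mitochondrial genes.

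The falls in the cytosolic group appeared on every ISWI array, as the plot of values by array shows. Each ISWI array had 14 of the 16 genes below all 3 GST arrays. The share of all tested genes that lie so on a single ISWI array was not computed. The median distance of the 16 genes from the GST mean was -0.34, -0.35 and -0.32 on ISWI replicates 1, 2 and 3. Without ISWI replicate 2, which had the largest 3' to 5' difference, 12 cytosolic genes were lower. The groups did not overlap, with ISWI lower, for 12 cytosolic genes, a pattern found in 23.7% of all tested genes, and the opposite pattern was found in 31.2%. By size, 6 cytosolic genes fell at least 1.5-fold, as did 4.86% of all tested genes. At least 2-fold falls were seen in 2 of them and in 1.56% of all tested genes.

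The largest cytosolic change was that of AsnRS, which charges tRNA with asparagine. It read 11.33, 11.48 and 11.32 on the ISWI arrays and 12.51, 12.39 and 12.62 on the GST arrays. The lowest GST array was 0.91 above the highest ISWI array. The log2 fold change was -1.13 (standard error 0.07, limma adjusted p = 2.72e-05), which left 45.6% of the GST level with a 95% confidence interval of 40.7% to 51.1%.

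The enzymes for the branched-chain amino acids valine, isoleucine and leucine all fell, a grouping made after the values were seen. They are related class I enzymes with an editing site that removes wrongly attached amino acids. ValRS read 10.39, 10.04 and 10.10 on ISWI arrays and 11.29, 11.19 and 11.37 on GST arrays, and fell by 1.11 on the log2 scale (standard error 0.10, limma adjusted p = 0.00012). IleRS read 11.18, 11.12 and 11.17 on ISWI arrays and 12.09, 12.13 and 12.22 on GST arrays. Its fall by 0.99 (standard error 0.05) had the smallest limma adjusted p of the synthetases, 9.72e-06 (SD 0.03 among ISWI and 0.07 among GST arrays, n = 3 each). LeuRS read 10.94, 10.81 and 10.74 on ISWI arrays and 11.35, 11.40 and 11.50 on GST arrays, and fell by 0.59 (standard error 0.07, limma adjusted p = 0.000434). The gap between the nearest ISWI and GST arrays was 0.91 for IleRS, 0.80 for ValRS and 0.41 for LeuRS.

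GluProRS is a fused enzyme that charges tRNA with glutamate and with proline. It read 11.07, 11.02 and 11.04 on ISWI arrays and 11.84, 11.76 and 11.81 on GST arrays, a fall by 0.76 (standard error 0.05, limma adjusted p = 2.03e-05). The 2 mitochondrial enzymes for these amino acids did not pass, with log2 fold changes of -0.13 for GluRS-m (95% confidence interval -0.38 to 0.11) and 0.10 for ProRS-m (-0.08 to 0.28). ThrRS, the threonine enzyme, read 11.35, 11.22 and 11.27 on ISWI arrays and 11.83, 11.92 and 11.94 on GST arrays, a fall by 0.62 (standard error 0.05, limma adjusted p = 0.000117). The probe sets for ValRS, IleRS and ThrRS carry the suffix _s_at, which in this naming scheme marks probes that may match transcripts of more than 1 gene. Without these 3 genes, an alternative chosen after seeing the data, 9 of the other 13 cytosolic genes were lower.

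Smaller falls were measured for 6 other cytosolic enzymes. GlyRS, for glycine, fell by 0.41 (standard error 0.07), AlaRS, for alanine, by 0.34 (0.08), HisRS, for histidine, by 0.33 (0.08) and LysRS, for lysine, by 0.29 (0.08). The limma adjusted p was 0.003, 0.0108, 0.0126 and 0.0187 for these genes. GlnRS, for glutamine, read 9.81, 9.80 and 9.75 on ISWI arrays and 9.96, 10.01 and 9.97 on GST arrays. This is the smallest passing change of the group, a fall by 0.19 (standard error 0.05, limma adjusted p = 0.0248). LysRS and GlnRS were the calls that rested on single arrays. LysRS had an adjusted p = 0.0668 without GST replicate 3, and GlnRS had an adjusted p of 0.0543 to 0.101 without ISWI replicate 3 or any 1 of the GST arrays.

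TrpRS, the tryptophan enzyme, was the only member with more than 1 probe set, and its probe sets differed in the size of the change. On the probe set with the highest signal, which stands for the gene, the values were 11.55, 11.63 and 11.56 on ISWI arrays and 11.86, 11.83 and 11.84 on GST arrays, a fall by 0.26 (standard error 0.04, limma adjusted p = 0.00265). The probe set of intermediate signal read 10.58, 10.59 and 10.66 on ISWI arrays and 11.04, 10.98 and 11.13 on GST arrays, a fall by 0.44 (standard error 0.06, limma adjusted p = 0.000827). The probe set of lowest signal read 5.99, 6.31 and 5.93 on ISWI arrays and 7.54, 7.27 and 7.27 on GST arrays, a fall by 1.28 (standard error 0.13, limma adjusted p = 0.000257). All 3 had ISWI arrays below all GST arrays. With the probe sets averaged, TrpRS fell by 0.66. Which transcripts each probe set detects is not given in the sources used here.

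**Figure D2:**
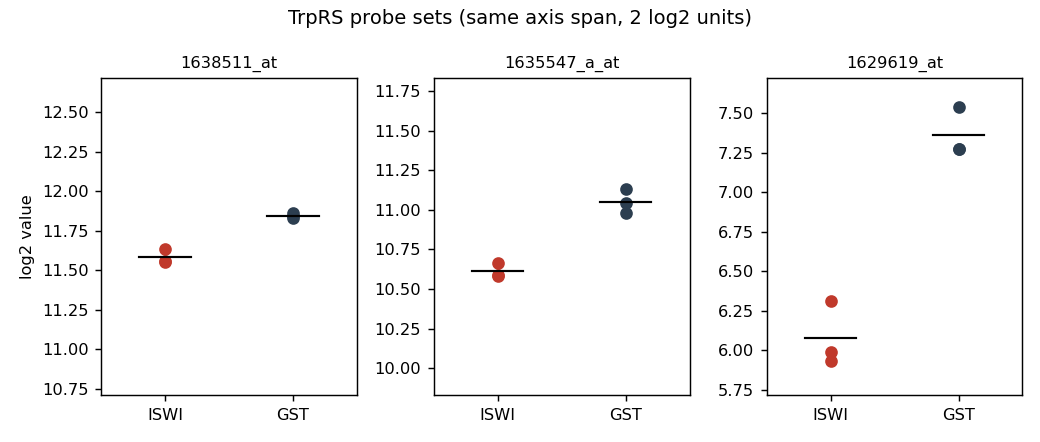
Log2 values of the 3 TrpRS probe sets, each panel a probe set with the ISWI arrays on the left and the GST arrays on the right (n = 3 each), bars at the group means; all panels span the same range. The distance between the groups is 0.26, 0.44 and 1.28 from the left panel to the right one.

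The 4 cytosolic genes that did not pass were SerRS, CysRS, ArgRS and TyrRS. CysRS, for cysteine, read 10.21, 10.19 and 10.18 on ISWI arrays and 10.23, 10.26 and 10.21 on GST arrays. ArgRS, for arginine, read 9.81, 9.88 and 9.84 on ISWI arrays and 9.90, 9.90 and 9.86 on GST arrays. Both had overlapping groups and narrow 95% confidence intervals around the log2 fold change, from -0.15 to 0.08 for CysRS and from -0.16 to 0.09 for ArgRS. TyrRS, for tyrosine, had wider limits (-0.17 to 0.27). SerRS, for serine, had a log2 fold change of -0.15 (-0.34 to 0.04), with ISWI replicate 3 at 12.19 and the other ISWI arrays at 11.94. Without that array SerRS was lower at an adjusted p = 0.024.

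**Figure D3:**
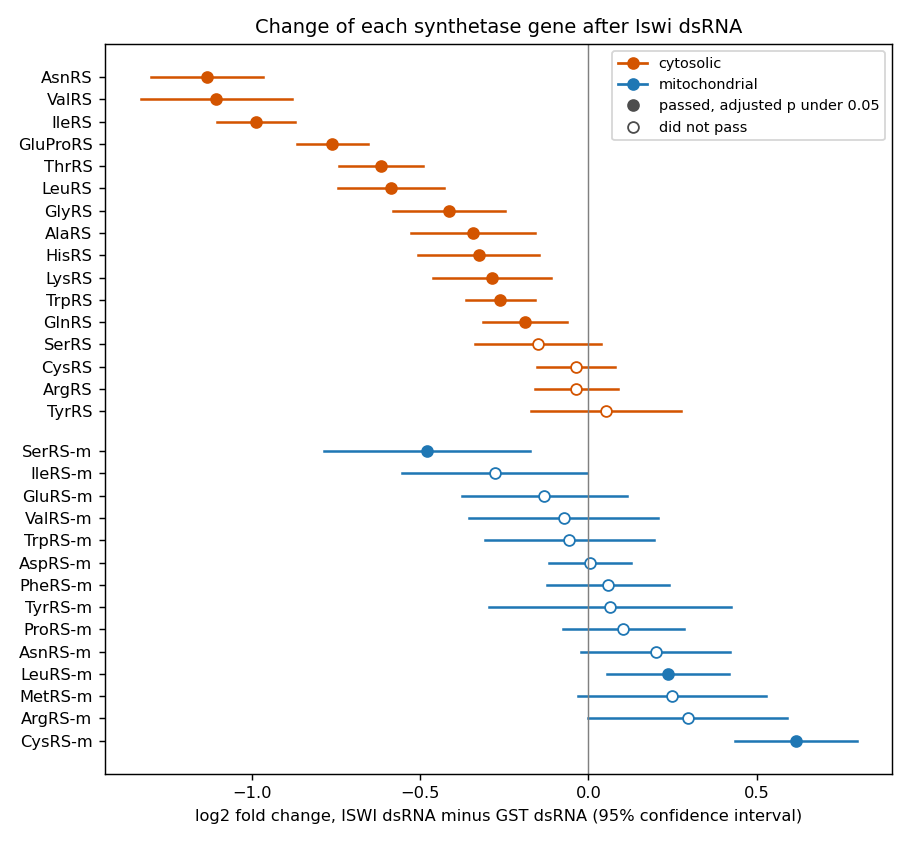
Log2 fold change (ISWI dsRNA minus GST dsRNA) of each synthetase gene with its 95% confidence interval from the limma fit, 16 cytosolic genes above and 14 mitochondrial genes below; filled points passed at an adjusted p under 0.05. Filled points number 12 among cytosolic genes, all left of 0, and 3 among mitochondrial genes.

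Of the mitochondrial enzymes, CysRS-m, for cysteine, rose. It read 8.79, 8.85 and 8.67 on ISWI arrays and 8.08, 8.24 and 8.14 on GST arrays, a log2 fold change of 0.62 (standard error 0.08, limma adjusted p = 0.000698) or 1.53-fold. It passed under every alternative setting that was run. LeuRS-m, for leucine, read 7.37, 7.41 and 7.51 on ISWI arrays and 7.18, 7.22 and 7.17 on GST arrays, a rise of 0.24 (standard error 0.08, limma adjusted p = 0.0439). This call was lost without any 1 array other than ISWI replicate 1, at an adjusted p of 0.0611 to 0.121. SerRS-m, for serine, read 8.04, 8.36 and 7.91 on ISWI arrays and 8.41, 8.62 and 8.73 on GST arrays, a fall by 0.48 (standard error 0.13, limma adjusted p = 0.0226). The nearest ISWI and GST values of SerRS-m were only 0.05 apart, and the call was lost when GST replicate 2 or 3, or ISWI replicate 1 or 3, was left out, at an adjusted p of 0.0565 to 0.0872.

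The other 11 mitochondrial genes did not pass, with log2 fold changes between -0.28 (IleRS-m) and 0.29 (ArgRS-m). ArgRS-m read 6.39 on ISWI replicate 1 and 6.80 and 6.79 on the other ISWI arrays, against 6.32 to 6.42 on GST arrays. Without ISWI replicate 1 it was higher at an adjusted p = 0.0108 with a log2 fold change of 0.43. AspRS-m and PheRS-m, for aspartate and phenylalanine, had log2 fold changes of 0.00 (95% confidence interval -0.12 to 0.12) and 0.06 (-0.12 to 0.24). The ValRS-m probe set lay at 4.30 to 4.39 on ISWI arrays and 4.38 to 4.48 on GST arrays, close to the level of 4, where a change is hard to see. MetRS-m, TyrRS-m, TrpRS-m and AsnRS-m also had intervals that include 0.

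For 9 amino acids both enzymes were measured, which allows the change of each pair to be set side by side. The cytosolic gene was lower in 5 pairs and the mitochondrial gene in 1, where 17.6% of all tested genes were lower. In 0 pairs were both lower, a count that could have reached at most 1, as only 1 mitochondrial gene was lower. For asparagine the log2 fold change was -1.13 for the cytosolic and 0.20 for the mitochondrial gene, and for valine it was -1.11 and -0.07. As ValRS-m lay at 4.30 to 4.48, close to the level of 4, a change of it is hard to see, and the valine pair and its ratio below rest on ValRS. For leucine the calls were opposite, -0.59 for the cytosolic and 0.24 for the mitochondrial gene. For cysteine the cytosolic gene gave -0.04 and the mitochondrial gene 0.62. Serine ran the other way, with -0.15 for the cytosolic and -0.48 for the mitochondrial gene, and tyrosine gave 0.05 and 0.07. The log2 ratio of the cytosolic over the mitochondrial probe set was then taken within each array, which cancels any shift of a whole array. This ratio was lower on all 3 ISWI arrays than on all GST arrays in 6 of 9 pairs (asparagine, valine, isoleucine, leucine, cysteine and arginine), by 0.33 to 1.33 on the log2 scale. For each of these 6 p was 0.1 by an exact two-sided permutation test, the minimum for 3 against 3 arrays, or 0.15 after Benjamini-Hochberg adjustment over the 9 pairs. Single genes often separated the groups too, with ISWI lower in 23.7% and higher in 31.2% of all tested genes. How often ratios of other gene pairs separate them was not computed, so the count of 6 has no share to be set against. The ratios of tryptophan, serine and tyrosine overlapped between the groups. The tryptophan ratio used only the TrpRS probe set of highest signal. Its log2 fold change was -0.26, against -0.44 and -1.28 on the other TrpRS probe sets, for which no ratio was taken.

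**Figure D4:**
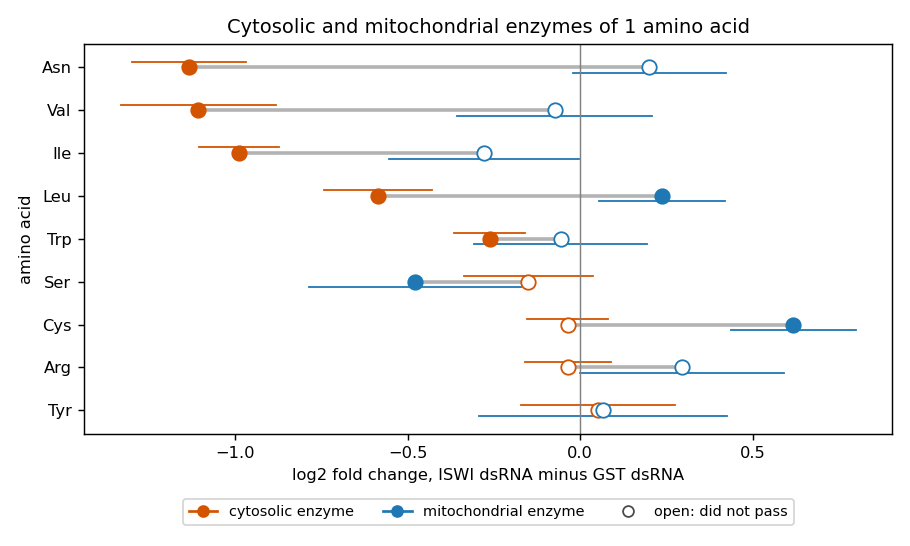
Log2 fold change (ISWI dsRNA minus GST dsRNA) of the cytosolic (orange) and mitochondrial (blue) enzyme for each of 9 amino acids; thin lines are 95% confidence intervals and open points did not pass. The cytosolic point lies left of the mitochondrial one in 8 pairs and right of it for serine.

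Both structural classes, and genes within and outside a mammalian synthetase complex, held genes that passed and genes that did not. These groupings were made after the values were seen and were not tested. Class I enzymes, which bind ATP in a Rossmann fold, were lower in 5 of 8 cytosolic cases (median log2 fold change -0.23), and class II enzymes in 6 of 7 (median -0.34), leaving out GluProRS, which holds an enzyme of each class. Mammalian cells hold several synthetases in a multisynthetase complex. Of the 6 measured cytosolic genes whose mammalian counterparts belong to it (GluProRS, IleRS, LeuRS, GlnRS, LysRS and ArgRS) 5 were lower, and of the other 10, 7 were lower. Among all tested genes, 17.6% were lower. The scaffold genes of that complex, AIMP1, AIMP2 and AIMP3, did not pass, at 0.03, -0.12 and -0.07. In the Release 6 gene order TyrRS directly follows GluRS-m, and neither passed.

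Synthetase subunits whose symbols lie outside the pattern gave 1 lower of 3, where 17.6% of all tested genes were lower. With 3 genes, this count cannot be set apart from that share. beta-PheRS, which with alpha-PheRS forms the cytosolic phenylalanine enzyme, read 8.47, 8.40 and 8.14 on ISWI arrays and 8.71, 8.71 and 8.89 on GST arrays. It fell by 0.44 (standard error 0.10, limma adjusted p = 0.0121), a call lost without GST replicate 3. alpha-PheRS gave -0.13 (95% confidence interval -0.30 to 0.04), with ISWI arrays below all GST arrays, and Slimp, a mitochondrial relative of the serine enzyme, gave 0.00 (-0.21 to 0.21).

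Of 4 tested genes in a list of amino acid transporters, 3 fell and 0 rose, where 17.6% of all tested genes were lower and 23.4% higher. Their median log2 fold change was -0.66, and 3 to 4 fell when any 1 array was left out. JhI-21, which encodes a transporter of large neutral amino acids, read 13.1, 13.3 and 12.9 on ISWI arrays and 14.0, 14.1 and 14.1 on GST arrays, a fall by 0.98 (standard error 0.09, limma adjusted p = 0.000121). mnd (minidiscs), of the same transporter family, fell by 0.68 (standard error 0.07) and path (pathetic), a proton-assisted amino acid transporter, by 0.64 (standard error 0.05). For all 3 the ISWI arrays lay below all GST arrays. gb did not pass, at -0.20 (95% confidence interval -0.36 to -0.04, limma adjusted p = 0.0548). slif and sbm were at or below a log2 value of 4 on all arrays and were not tested.

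In the list of amino acid stress genes, 2 of 8 tested genes rose and 1 fell. The share of 37.5% is near the 41.1% of all tested genes. crc, the fly ATF4 gene, whose protein raises synthetase genes under amino acid stress in mammals, read 14.45, 14.52 and 14.47 on ISWI arrays and 14.47, 14.53 and 14.51 on GST arrays. Its log2 fold change of -0.02 had a 95% confidence interval of -0.10 to 0.05, and Gcn2, the kinase that senses uncharged tRNA, gave -0.06 (-0.21 to 0.09). Asparagine synthetase (AsnS) gave -0.10 (-0.32 to 0.12), while AsnRS for the same amino acid fell by 1.13. PEK, the kinase of the endoplasmic reticulum stress response, rose by 0.25, aay, a phosphatase of serine synthesis, rose by 0.21, and Shmt, which interconverts serine and glycine, fell by 0.54, with limma adjusted p = 0.0113, 0.025 and 0.000231. The crc signal was high, with 16.25 the highest value on the ISWI arrays and 16.28 on the GST arrays, and high array signals can compress changes. Array values speak of the crc transcript and not of its protein.

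Genes that act on the tRNA itself were lower in 6 of 11 tested cases (54.5%, against 17.6% of all tested genes) and higher in 0 (against 23.4%), and leaving out any 1 array gave 4 to 7 lower and 0 to 1 higher. RNaseZ, which trims the 3' end of tRNA precursors, read 7.98, 8.04 and 7.96 on ISWI arrays and 8.88, 8.86 and 8.84 on GST arrays, a fall by 0.87 (standard error 0.06, limma adjusted p = 5.69e-05). Elp3, of the Elongator complex that modifies wobble bases, fell by 0.48, La, which binds the ends of new tRNA transcripts, by 0.23, and the tRNA methyltransferase gene Mt2 by 0.71. Mt2 was near the level of 4 on ISWI arrays (3.64 to 4.03), against 4.51 to 4.75 on GST arrays. Of 3 tested genes for editing and transamidation, Dtd, which removes D-amino acids from tRNA, read 5.14, 5.37 and 5.39 on ISWI arrays and 6.56, 6.54 and 6.60 on GST arrays, a fall by 1.27 (standard error 0.11, limma adjusted p = 0.000102). CG10802 fell by 0.62 and GatA, a subunit of the mitochondrial amidotransferase, rose by 0.42.

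Other parts of the translation machinery changed in both directions or gave no call. Of 69 tested mitochondrial ribosomal protein genes 13 fell (18.8%, against 17.6% of all tested genes) and 7 rose (10.1%, against 23.4%). Their median log2 fold change was -0.01, the passing genes ran from mRpL28 at -0.78 to mRpL19 at 0.34, and without GST replicates 1, 2 and 3 in turn 3, 3 and 4 rose, while 13 rose without ISWI replicate 1. Of 87 listed cytosolic ribosomal protein genes 31 were tested, of which 5 fell (16.1%) and 3 rose (9.68%), with a median of -0.02. The passing genes ran from RpLP2 at -0.12 to RpS19b at 0.40, and RpS19b had a low signal, with means of 5.83 on ISWI and 5.43 on GST arrays. The tested genes had a median level of 15.43 on ISWI and 15.48 on GST arrays, near the highest values on the arrays (16.25 on ISWI and 16.28 on GST arrays), where array signals can compress changes, so this group gives little contrast with the synthetases. Of 3 tested cytosolic elongation factors eEF1delta rose by 0.26 and eEF5 fell by 0.13, and 0 of 4 mitochondrial elongation factors passed. Of 9 RNA polymerase III genes, which include the initiation factor gene Brf (higher by 0.40), 1 rose and 2 fell, Polr3G by 0.67 and Polr3D by 0.29. The difference between the synthetases and these groups was not tested.

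**Figure D5:**
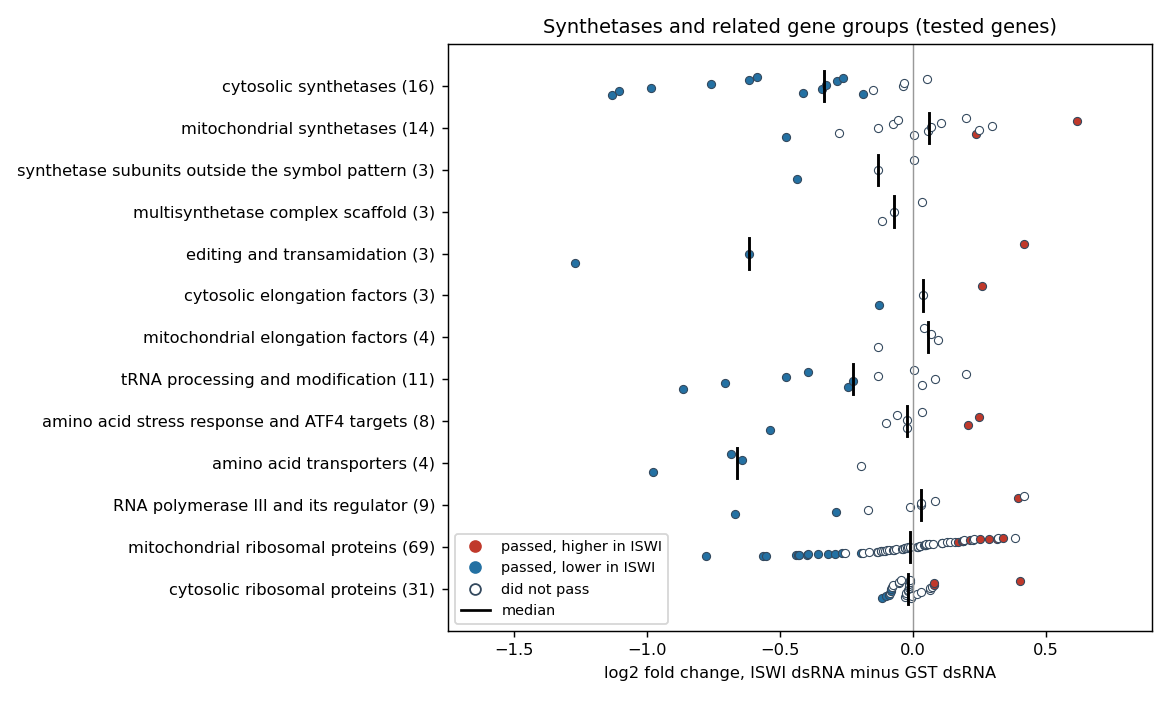
Log2 fold change (ISWI dsRNA minus GST dsRNA) of each tested gene in the synthetase groups and the related gene groups, with the number of genes in brackets; red points passed as higher, blue as lower, open points did not pass, and bars mark medians. The medians are -0.34 for cytosolic synthetases, 0.06 for mitochondrial synthetases and -0.66 for the 4 amino acid transporters.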

How the data were processed

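Analysis started from the log2 values that the submitters deposited, with 1 column per array and 1 row per probe set. Per the submitters' processing notes they were made with GCRMA, which in general corrects background, normalizes arrays by quantiles and summarises probes. Other steps are not given in the sources used here. Such processing removes a global shift of RNA content and holds undetected transcripts at a low level. Of 18952 probe sets, 183 controls were left out. The annotation gave 1 symbol for 13647 of the others, several for 402 and none for 4720, and 13544 of the first matched a Release 6 gene table, used for names and gene order.

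Probe sets above 4 on at least 3 of 6 arrays entered a linear model in R 4.3.3 with limma 3.58.1 (eBayes with an intensity trend, two-sided, Benjamini-Hochberg over 7390 probe sets, threshold 0.05). Of several tested probe sets, that of highest mean signal stood for its gene. Samples were grouped by title. The series design calls the replicates biological. The number of arrays limits the precision. The fit was tested on simulated data with 200 changed probe sets of 7390. It recovered 64% of changes of 0.5 and 91.9% of changes of 1 (log2), and 4.67% of its calls were false. The real data gave many more calls, 1634 higher and 1340 lower probe sets, so these rates need not hold for them. Members, lists and tests were chosen with earlier results of these data known, and the within-array ratio was added after the values were seen. Named were Iswi, all members, and per list up to 4 passing genes by smallest adjusted p (ribosomal lists: the highest and lowest), and members that a limit concerns.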

Additional observations from a re-analysis of the deposited data

How the results depend on the processing

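Calls were recomputed under other filters, scalings, variance moderation, probe set choices, thresholds and without each array. The count of lower cytosolic synthetases was 10 to 12 without any 1 array, 8 at adjusted p 0.01 and 6 when a 1.5-fold change was required too, and 0 were higher in all settings. At the threshold of 0.05 without a fold limit, 10 of the 12 cytosolic calls held in all 15 settings, the exceptions being LysRS and GlnRS, and 1 of the 3 mitochondrial calls, CysRS-m. Among mitochondrial synthetases, higher genes numbered 1 with array weights, with robust moderation, with quantile normalization applied again, with a filter at 6, without a filter, with the replicate block, at adjusted p 0.01 and with the 1.5-fold limit (in each case CysRS-m, with LeuRS-m not passing), and 1 to 3 without single arrays. Lower genes numbered 0 without a filter, at adjusted p 0.01 and with the 1.5-fold limit, 2 after quantile normalization, where IleRS-m passed, and 0 to 1 without single arrays. Over all probe sets the counts were 986 higher and 763 lower at adjusted p 0.01, and 518 and 390 with the 1.5-fold limit. No called synthetase value changed sign in these settings. Same-numbered replicates were not treated as paired in the main fit. Correlations of their deviations were -0.18, 0.12 and 0.06, and so few arrays cannot show whether they shared a batch. The replicate block gave 11 lower cytosolic genes, without GlnRS.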
